A study of Mus musculus with 6 samples.

Results

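This report describes 10 genes of mRNA decay factors in sorted cells of the mouse renal medulla: the tristetraprolin (TTP) family (Zfp36, Zfp36l1, Zfp36l2), the BTG and TOB family (Btg1, Btg2, Btg3, Tob1, Tob2) and a pair of Regnases (Zc3h12a, Zc3h12c). They were found by symbol in the deposited RPKM table, where the 10 symbols match 11 of 37583 gene identifiers because Tob2 has a second entry of 859 bases. All 11 passed the filter on low counts. RNA came from EGFP-positive cells of B1 VATPase EGFP transgenic mice aged 12 weeks, sorted in 2 rounds from the medulla. The 3 sham samples were taken 2 h after a sham operation and the 3 IRI samples 2 h after renal ischemia-reperfusion injury, in which the blood supply is stopped and restored. Each sample pooled 4 kidneys of 2 mice, and strain and sex are not given in the labels. Both groups carry the EGFP transgene, which the series' design text describes as specific to intercalated cells, the acid- and base-secreting cells of the collecting duct.

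Poly(A)-tail shortening by the CCR4-NOT deadenylase starts the decay of most mRNAs, and the proteins described here steer it or cut mRNA themselves. TTP proteins bind AU-rich elements in 3′ untranslated regions (3′ UTRs) through a pair of zinc fingers and bring CCR4-NOT to the mRNA, which shortens the life of many cytokine and growth factor transcripts. BTG and TOB proteins bind the deadenylase subunits CNOT7 and CNOT8, and the TOB proteins also bind the poly(A)-binding protein. Regnases are endoribonucleases that cut stem-loops in the 3′ UTRs of inflammatory mRNAs. Several of these genes are known as early response genes whose own mRNAs are short-lived.

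The labels disagree on the tissue: the tissue entry reads epididymis, and the genotype entry also places EGFP under Cx3cr1, while the design text gives renal medulla. Cx3cr1 had 1 read in the sham and 1 in the IRI libraries. All 15 intercalated cell markers listed were tested, with summed levels of 25683 to 31955 CPM (read counts scaled to library size) in sham and 24852 to 30804 CPM after IRI. Of these, 4 (26.7%) were called lower (Hmx2, Insrr, Rhcg and Atp6v1b1, log2 -2.95, -1.62, -1.01 and -0.37) and the other 11 had no call. For comparison, 21.2% of all tested genes were called lower and 24.2% higher. Markers of principal cells were abundant too, at 13099 to 14819 CPM in sham and 6489 to 12272 CPM after IRI. Of 10 tested, 4 (40%) were lower (Kcnj1, Hsd11b2, Scnn1a and Aqp3, log2 -2.34, -1.51, -0.42 and -0.40). Markers of the thick limb and distal tubule summed to 2487 to 4611 CPM in sham and 2688 to 2965 CPM after IRI, with no call for the 10 tested. Vessel and stromal markers were sparse. Of 8 endothelial markers tested, Flt1 was higher (log2 3.29, 10 sham reads), Ehd3 was lower (log2 -1.09) and 6 had no call. Of 4 fibroblast and pericyte markers tested, Acta2 (log2 3.23) and Tagln were higher, Cspg4 was lower (log2 -2.86) and 1 had no call. Acta2 had 23 sham reads and Tagln 38. Flt1, Acta2 and Tagln would not have passed the low-count filter on the sham samples alone. Of 6 proximal tubule markers tested, 1 was lower and 5 had no call. The part of these shifts in the results was not tested. Of 16 epididymis markers, 14 were below the filter, and the 2 tested, Defb2 (565 reads in sham, 306 after IRI) and Cst8 (100 and 75), had no call. The libraries held 17421669 to 24245330 reads in genes. In bulk samples such as these, fewer cells of a type and less RNA per cell cannot be told apart.

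The TTP family binds a 9-base element of U and A, written TTATTTATT in DNA letters. The longest annotated 3′ UTR of each gene in GENCODE M21 was searched for it. All 3 TTP transcripts held 1 copy, while the 7 other genes held none, against 7.9% of the 12362 other tested genes with an annotated 3′ UTR. The 3 copies are shown with 6 bases on each side, the element in capitals, because they sit in the mRNAs of the factors that bind such elements.
Zfp36: acgactTTATTTATTgtatta
Zfp36l1: gttggaTTATTTATTttagaa
Zfp36l2: tttaacTTATTTATTatcttg
They start at base 589 of 774, base 1404 of 1835 and base 821 of 1822 of the 3′ UTR. The shorter core ATTTA was present 3 to 14 times in each of the 10 UTRs, with 14 copies in Zc3h12c and 11 in Btg1. A match is a description of the sequence, and binding was not measured here.

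The 250 bases before the annotated start are printed for Zfp36 and Btg2, the most abundant members after IRI, and for Tob1, the member that fell. The sequences are from the RefSeq promoter table (GRCm38.p6), which held 9 of the 10 genes, and are written 5′ to 3′ on the gene's strand with motif matches in capitals.
Zfp36, chr7:28379229-28379478, minus strand: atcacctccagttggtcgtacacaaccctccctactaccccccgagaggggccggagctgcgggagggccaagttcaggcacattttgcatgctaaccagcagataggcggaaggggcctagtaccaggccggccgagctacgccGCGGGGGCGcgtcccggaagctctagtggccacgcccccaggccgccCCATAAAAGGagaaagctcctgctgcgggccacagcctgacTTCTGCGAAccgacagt
Btg2, chr1:134079156-134079405, minus strand: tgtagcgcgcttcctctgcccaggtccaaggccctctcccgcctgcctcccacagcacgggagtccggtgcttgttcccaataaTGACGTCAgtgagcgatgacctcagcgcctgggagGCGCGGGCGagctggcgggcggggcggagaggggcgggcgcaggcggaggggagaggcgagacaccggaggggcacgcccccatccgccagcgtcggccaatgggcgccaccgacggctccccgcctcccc
Tob1, chr11:94211204-94211453, plus strand: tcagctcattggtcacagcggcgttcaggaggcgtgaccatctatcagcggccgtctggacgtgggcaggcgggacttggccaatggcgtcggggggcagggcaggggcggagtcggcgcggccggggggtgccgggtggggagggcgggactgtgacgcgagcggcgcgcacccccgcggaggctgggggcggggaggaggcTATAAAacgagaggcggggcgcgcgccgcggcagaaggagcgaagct
Both strands were searched for the CArG box, NF-kB sites and single p53 decamers, and for the CRE (TGACGTCA). AP-1 was searched as TGANTCA and STAT as TTCNNNGAA. The FOXO motif was GTAAACA, the EGR motif was GCGNGGGCG and the TATA motif was TATAAA. The Zfp36 window held an EGR match from base -105 to -97 before the start, a CArG box (the site of serum response factor) from -58 to -49 and a STAT match from -17 to -9. The Btg2 window held a CRE from -166 to -159 and an EGR match from -131 to -123. The Tob1 window held 1 match, to TATA, from -47 to -42. Among all 32851 promoter windows of this length, 1.47% held a CArG box, 1.55% a CRE, 4.7% an EGR match, 7.02% a STAT match and 12.4% a TATA match. In the other members' windows there were a FOXO match (3.17% of all windows) and a TATA match in Btg1, an AP-1 match (6.75%) and a TATA match in Zfp36l1, a p53 decamer (7.13%) in Zc3h12a and an NF-kB match (5%) in a window of Btg3. The matches overlapped no other motif.

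Of the 10 genes, 6 were called higher after IRI (Zfp36, Zfp36l1, Zfp36l2, Btg1, Btg2 and Zc3h12a), 1 was called lower (Tob1) and 3 had no call (Btg3, Tob2 and Zc3h12c). A call is an adjusted p under 0.05 by edgeR's quasi-likelihood test with Benjamini-Hochberg adjustment over all 13881 genes tested. Of all tested genes, 24.2% were called higher and 21.2% lower, 45.5% in all. The IRI samples lay wholly above the sham samples for 6 of the 10 genes and wholly below for 1, against 29.2% and 27.2% of all tested genes, or 56.4% in either direction. The median log2 fold change of the 10 was 1.09, while that of all tested genes was 0.00. The 10 genes were chosen with earlier results of these data known, so these contrasts with all genes are a description. Scaling by library size alone moved the median of all genes by -0.20 (log2) and upper-quartile scaling by -0.12. Under both the same 7 of the 10 genes were called and no other, while of all tested genes 17.3% were higher and 31.2% lower under the first and 19.8% and 27.3% under the second.

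**Figure D1:**
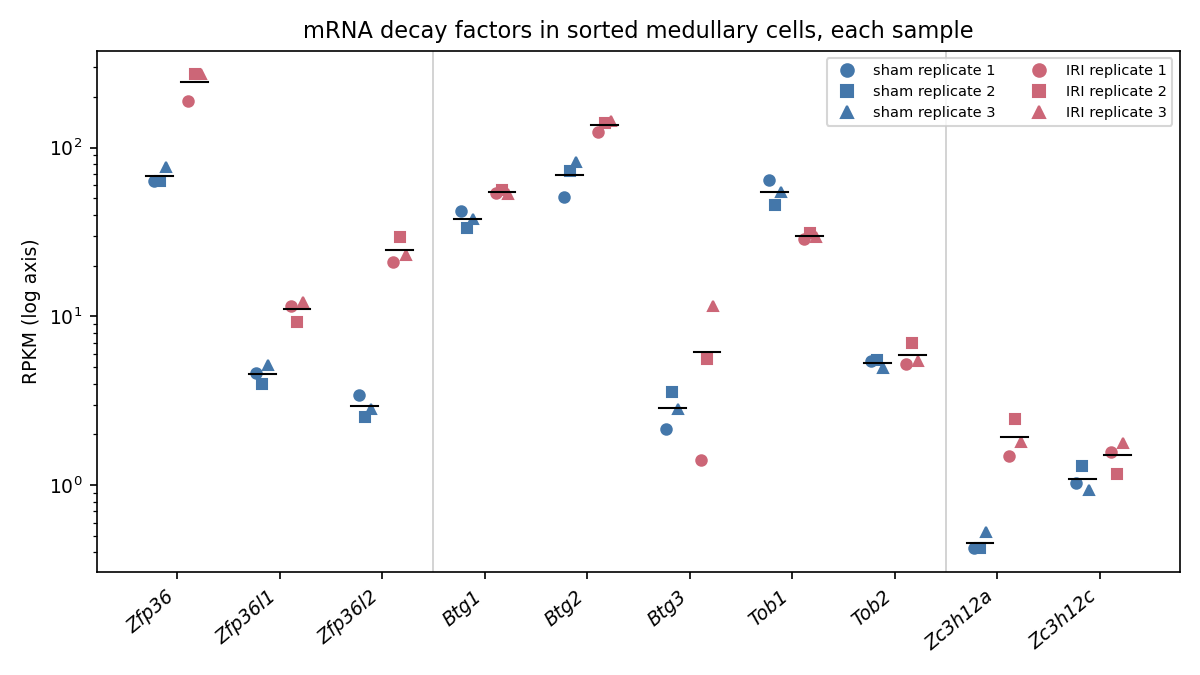
RPKM of each gene in each sample on a log axis, sham in blue and IRI in red, with symbols for the replicate number and a line at each group mean (n = 3 per group). The groups are apart for Zfp36, Zfp36l1, Zfp36l2, Btg1, Btg2, Tob1 and Zc3h12a and overlap for Btg3, Tob2 and Zc3h12c.

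Levels of different genes were compared in RPKM, which corrects reads for gene length and library size. In sham cells 4 of the genes were abundant: Btg2 at 68.7 ± 15.9 RPKM (SD, n = 3), Zfp36 at 68.0 ± 7.60, Tob1 at 54.7 ± 9.08 and Btg1 at 37.7 ± 4.5. The samples of Btg2, Zfp36 and Tob1 overlapped in this order, and Btg1 lay below all 3. Tob2 (5.33 ± 0.31 RPKM) and Zfp36l1 (4.57 ± 0.60) followed with overlapping samples, then Zfp36l2 (2.93 ± 0.46) and Btg3 (2.85 ± 0.70), which overlapped as well. The Regnases were lowest, with Zc3h12c at 1.09 ± 0.19 and Zc3h12a at 0.457 ± 0.059 RPKM, each sample of Zc3h12a below each of Zc3h12c. After IRI the order was Zfp36 (244 ± 48 RPKM), Btg2 (136 ± 10), Btg1 (54.6 ± 1.4), Tob1 (29.8 ± 1.3), Zfp36l2 (24.6 ± 4.4), Zfp36l1 (11.04 ± 1.56), Btg3 (6.19 ± 5.09), Tob2 (5.87 ± 0.92), Zc3h12a (1.92 ± 0.51) and Zc3h12c (1.51 ± 0.31). Among neighbours in that order, the samples of Tob1 and Zfp36l2, of Zfp36l1 and Btg3, of Btg3 and Tob2, and of the Regnases overlapped. Zfp36 stood above 92.4% of tested genes in sham and above 97.7% after IRI by mean RPKM, while Zc3h12a stood above 13.2% and 35.3%.

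All 3 TTP family genes rose. Zfp36, which encodes tristetraprolin itself, was at 63.7, 63.5 and 76.8 RPKM in sham replicates 1, 2 and 3 and at 189, 272 and 272 RPKM in the IRI replicates. The lowest IRI sample was more than 100 RPKM above the highest sham sample. Its log2 fold change was 1.88 ± 0.17 (SE), a 3.68-fold rise with an adjusted p of 5.97e-05. Zfp36l2, a paralog known from the control of blood and immune cell development, was at 3.44, 2.54 and 2.82 RPKM in sham and 21.1, 29.5 and 23.2 RPKM after IRI. It had the largest change of the 10 genes, 8.61-fold (log2 3.11 ± 0.17, adjusted p = 8.45e-06), above 98.2% of all tested genes. Zfp36l1, the paralog that binds Vegfa mRNA among others, was at 4.60, 3.96 and 5.16 RPKM in sham and 11.6, 9.28 and 12.2 RPKM after IRI. It rose 2.48-fold (log2 1.31 ± 0.15, adjusted p = 0.000193), and its groups did not overlap. The family changed within itself as well. Zfp36 made up most of the family sum in every sample, 88.8%, 90.7% and 90.6% in sham and 85.2%, 87.5% and 88.5% after IRI. The share of Zfp36l2 was 4.79%, 3.63% and 3.33% in sham and 9.53%, 9.51% and 7.56% after IRI. Its level was 0.546 to 0.747 of that of Zfp36l1 in sham and 1.82 to 3.18 times that of Zfp36l1 after IRI, so the order of these paralogs turned over. Each of these group differences had an exact two-sided permutation p of 0.1, the smallest that 3 samples against 3 allow. The groups did not overlap, so any pairing of the samples must give the same direction in 3 of 3 pairs. The exact paired p of 0.25, the smallest that 3 pairs allow, therefore adds no support. The summed level of the family went from 75.5 ± 8.1 to 280 ± 50 RPKM.

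**Figure D2:**
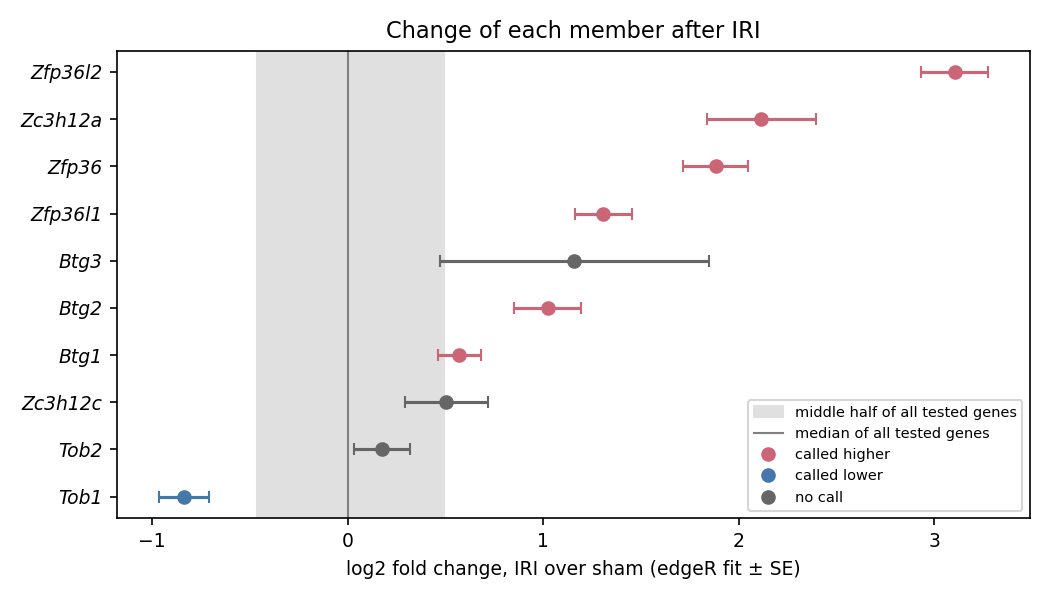
Fitted log2 fold change of IRI over sham for each gene, with its SE as the bar. The shaded band spans the quartiles of all tested genes, -0.46 to 0.49, and the line is their median; Zfp36l2 is farthest to the right at 3.11 and Tob1 is the only called gene on the left, at -0.84.

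In the BTG and TOB family, Btg1 and Btg2 rose while Tob1 fell. Btg2, an antiproliferative gene known as a p53 target and early response gene, was at 51.3, 72.4 and 82.3 RPKM in sham and 124, 139 and 144 RPKM after IRI. The spread between sham samples was wide, and every IRI sample lay above it. Btg2 rose 2.03-fold (log2 1.02 ± 0.17, adjusted p = 0.00149). Btg1, its close paralog, was at 42.3, 33.3 and 37.6 RPKM in sham and 54.1, 56.2 and 53.4 RPKM after IRI. Its rise was small, 1.48-fold (log2 0.57 ± 0.11, adjusted p = 0.00302), and was 0.37 with library size alone (adjusted p = 0.0253). Tob1, which joins CCR4-NOT to the poly(A)-binding protein, was at 64.0, 45.8 and 54.4 RPKM in sham and at 28.8, 31.3 and 29.4 RPKM after IRI. The highest IRI sample was below the lowest sham sample, and the log2 fold change was -0.84 ± 0.13 (adjusted p = 0.00093). The paralog Tob2 was at 5.47, 5.54 and 4.97 RPKM in sham and 5.23, 6.92 and 5.46 RPKM after IRI, with overlapping groups and no call (log2 0.18 ± 0.14, adjusted p = 0.344). With library size alone its sign turned (log2 -0.03). The second entry named Tob2 held 11 to 28 reads in a sample and had no call (log2 0.10 ± 0.43, adjusted p = 0.875). Its identifier is not in GENCODE M21, and how the 2 entries lie to each other was not determined.

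Btg3, a more distant family member, varied so much between IRI samples that no call was made. It was at 2.17, 3.56 and 2.83 RPKM in sham and at 1.41, 5.62 and 11.5 RPKM after IRI. IRI replicate 1 was below every sham sample and IRI replicates 2 and 3 were above every one. The log2 fold change was 1.16 ± 0.69 (adjusted p = 0.22), and without IRI replicate 1 it was 1.64 with a call (adjusted p = 0.00801). Without IRI replicate 3 it was 0.35. Btg3 overlaps Cxadr, a gene of the opposite strand in GENCODE M21, and the counts do not separate strands. Cxadr, a cell adhesion protein and virus receptor, had 949 to 1820 reads in the sham and 3152 to 4878 in the IRI libraries (log2 1.71 ± 0.18, adjusted p = 0.000199). The part of Cxadr reads in the Btg3 counts was not tested. Opposite-strand transcripts that GENCODE M21 places over Zfp36, Zfp36l1, Zfp36l2 and Tob2 are not among the counted identifiers, and reads from them that fall within exons of those genes cannot be told apart from theirs.

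Within the family, the share of Tob1 in the summed RPKM was 38.7%, 28.5% and 29.9% in sham and 13.5%, 13.1% and 12.1% after IRI. The share of Btg2 was 31.0%, 45.1% and 45.2% in sham and 58.1%, 58.2% and 59.1% after IRI. The IRI samples were close together and apart from the sham samples for both genes (exact permutation p = 0.1 each, the smallest possible). Tob1 had 0.633 to 1.25 times the level of Btg2 in sham and 0.204 to 0.232 times after IRI. The family sum rose less than that of the TTP genes, from 169 ± 11 to 232 ± 16 RPKM. Adjusted over the 13 shares and sums computed, the values at the smallest possible p had an adjusted p of 0.13. Pairing the same-numbered samples, the smallest p is 0.25. For 7 ratios between paralogs, which all reached the smallest possible p, the adjusted value was 0.1.

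**Figure D3:**
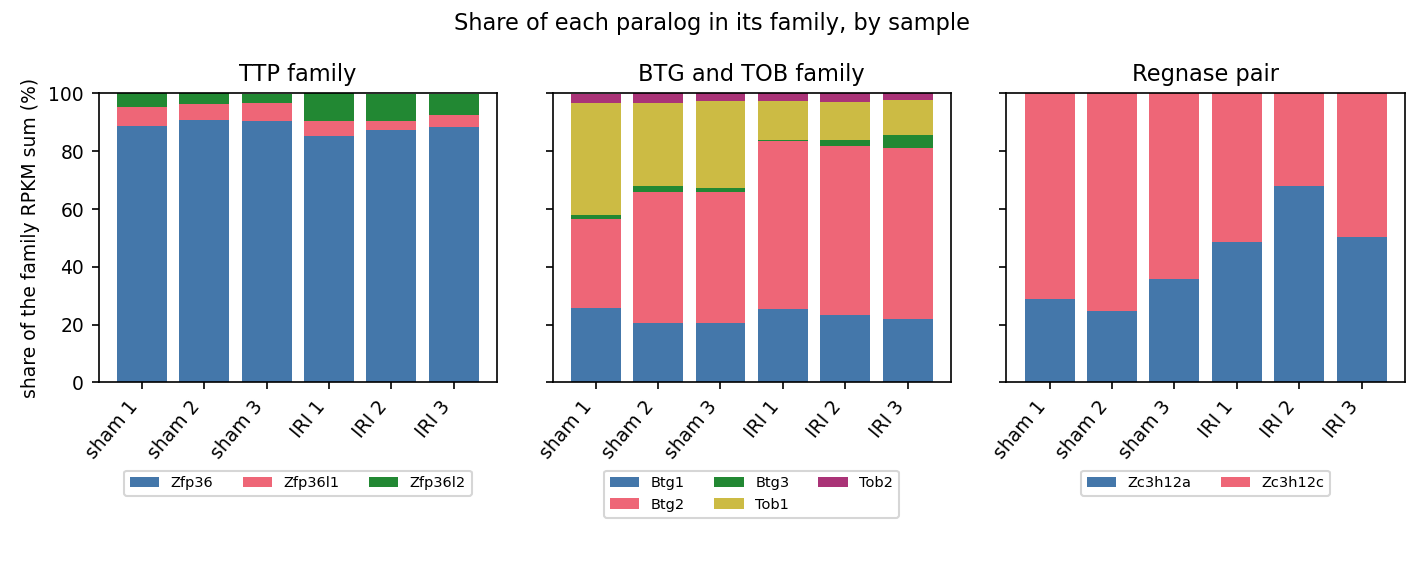
Share of each gene in the summed RPKM of its family, as stacked bars for the 3 sham and 3 IRI samples. Tob1 takes 28.5% to 38.7% of the BTG and TOB sum in sham and 12.1% to 13.5% after IRI, and Zc3h12a takes 24.7% to 35.9% of the Regnase sum in sham and 48.6% to 67.9% after IRI.

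Of the Regnases, Zc3h12a rose from a low level. Zc3h12a, or Regnase-1, which cuts interleukin and NF-kB regulator mRNAs, was at 0.422, 0.425 and 0.524 RPKM in sham and 1.48, 2.48 and 1.81 RPKM after IRI. These values rest on 28 to 31 reads in a sham library and 97 to 161 in an IRI library. The groups were apart, and the rise was 4.33-fold (log2 2.11 ± 0.28, adjusted p = 0.000424). Zc3h12c, or Regnase-3, was at 1.04, 1.30 and 0.936 RPKM in sham and 1.57, 1.17 and 1.78 RPKM after IRI. Its groups overlapped through IRI replicate 2, and no call was made (log2 0.50 ± 0.21, adjusted p = 0.0794). Without IRI replicate 2 its log2 value was 0.63, with an adjusted p of 0.0463. The share of Zc3h12a in the sum of the pair was 28.9%, 24.7% and 35.9% in sham and 48.6%, 67.9% and 50.5% after IRI (exact permutation p = 0.1).

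Leukocytes express TTP and Regnase-1, and some macrophage and dendritic cell markers differed between the groups. Of 19 macrophage and dendritic cell markers, 12 were tested. Of these, 4 (33.3%) were called higher, against 24.2% of all tested genes, and the other 8 had no call. The 19 markers summed to 70.1 to 294 CPM in sham and 231 to 330 CPM after IRI. Cd68, a lysosomal protein of macrophages, rose from 0.903 ± 0.322 to 37.7 ± 14.2 CPM (log2 5.39 ± 0.37). Cd14 rose from 7.87 ± 2.52 to 32.7 ± 9.2 CPM, Ptprc, the pan-leukocyte marker CD45, from 10.2 ± 1.9 to 17.4 ± 1.6 CPM, and Lyz2 from 0.544 ± 0.077 to 1.77 ± 0.75 CPM. Csf1r and C1qa, with no call, averaged 0.538 and 0.463 CPM in sham and 0.663 and 0.495 CPM after IRI, and Adgre1, below the filter, had 2 and 7 reads. Zfp36 averaged 120 ± 14 and 443 ± 90 CPM in the same groups, and Zc3h12a 1.32 ± 0.17 and 5.71 ± 1.53 CPM. None of 15 neutrophil markers passed the filter, 12 had no read in sham, and their sum was 0 to 0.118 CPM in sham and 0.145 to 5.52 CPM after IRI. Of 14 lymphocyte markers, 6 were tested and 0 were called, with a median log2 fold change of -0.88. The 14 summed to 4.36 to 66.9 CPM in sham and 9.16 to 36.2 CPM after IRI. The part of such cells in the rise of Zfp36 and Zc3h12a was not tested.

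Other genes of mRNA decay and 3′ UTR binding were called at shares near those of all genes. Over 7 lists, which also hold nonsense-mediated decay, other UTR-binding proteins and relatives of the members, 99 genes were tested, 28 were higher and 18 lower, which is 28.3% and 18.2% against 24.2% and 21.2% of all tested genes. Their median log2 fold change was 0.15. With library size alone 17 were higher and 30 lower (17.2% and 30.3%, against 17.3% and 31.2% of all tested genes), and with upper-quartile scaling 20 and 24 (20.2% and 24.2%, against 19.8% and 27.3%), so the shares moved with those of all genes. Without sham replicate 3, 18 were higher and 13 lower, without sham replicate 2, 19 and 13, and without IRI replicates 2 or 3, 12 were lower.

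Of 11 CCR4-NOT genes tested, 3 were higher and 2 lower. The deadenylase subunits bound by BTG and TOB proteins are Cnot7 and Cnot8. Cnot8 fell from 91.2 ± 4.7 to 57.3 ± 2.2 CPM (log2 -0.67 ± 0.09, adjusted p = 0.000514), while Cnot7 was at 101 ± 6 and 119 ± 13 CPM with no call (log2 0.24 ± 0.11, adjusted p = 0.0947). Of the other pair of catalytic subunits, Cnot6 rose from 32.3 ± 1.6 to 53.8 ± 8.4 CPM (log2 0.73 ± 0.13, adjusted p = 0.00223), and Cnot6l was at 24.7 ± 6.0 and 25.6 ± 2.7 CPM with no call (log2 0.05 ± 0.18, adjusted p = 0.85). Cnot10, a scaffold-associated subunit, and Tnks1bp1, a protein that copurifies with the complex, rose too (log2 0.66 ± 0.10 and 1.41 ± 0.21, adjusted p = 0.000731 and 0.000727). Cnot2 fell slightly (log2 -0.26 ± 0.09, adjusted p = 0.0367).

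Among 11 other deadenylases and poly(A)-binding genes, 4 were higher and 2 lower. Pabpc1, the main cytoplasmic poly(A)-binding protein and a partner of TOB proteins, rose from 35.4 ± 2.0 to 102 ± 12 CPM (log2 1.53 ± 0.11, adjusted p = 2.47e-05). Pde12, a mitochondrial deadenylase, and the clock-regulated Noct, a protein of the deadenylase fold, rose 2.35-fold and 2.33-fold (log2 1.23 ± 0.11 and 1.22 ± 0.19, adjusted p = 7.20e-05 and 0.00138). Pabpc4 rose by log2 0.47 ± 0.17 (adjusted p = 0.0434), a call that was lost with the replicate number as a block (adjusted p = 0.0537). Paip2, which inhibits the poly(A)-binding protein, fell from 489 ± 31 to 404 ± 9 CPM (log2 -0.28 ± 0.10, adjusted p = 0.0435). Decay after deadenylation proceeds by decapping and 5′ to 3′ digestion or through the exosome. Of 24 decapping and 5′ to 3′ decay genes, 6 were higher and 6 lower. The exonuclease Xrn1 rose from 4.74 ± 0.72 to 9.004 ± 0.331 CPM (log2 0.92 ± 0.18, adjusted p = 0.00336), as did Eif4e2, a cap-binding repressor that TTP recruits through GIGYF proteins (log2 0.54 ± 0.09, adjusted p = 0.0011). The scavenger decapping enzyme Dcps (log2 -0.83 ± 0.12, adjusted p = 0.000714), Lsm14b (-0.84 ± 0.25, 0.0221), Lsm3 (-1.30 ± 0.31, 0.0081) and Lsm6 (-0.56 ± 0.11, 0.00371) fell. Of 18 exosome and 3′ end genes, 4 were higher and 5 lower. The core subunit Exosc3 rose and Exosc5 fell (log2 0.56 ± 0.11 and -0.66 ± 0.10, adjusted p = 0.00404 and 0.00106), the uridylyl transferase Zcchc6 rose (log2 0.62 ± 0.13, adjusted p = 0.00487), as did Ttc37 of the SKI complex (log2 0.57 ± 0.17, adjusted p = 0.0218). Wdr61 of the same complex had no call (log2 -0.15 ± 0.10, adjusted p = 0.238).

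Other proteins that bind 3′ UTRs included 7 higher and 3 lower of 17 tested. Rbms1, an RNA-binding protein of AU-rich sequence, rose from 76.0 ± 6.3 to 284 ± 59 CPM (log2 1.90 ± 0.16, adjusted p = 4.88e-05). Zc3hav1, the zinc-finger antiviral protein, rose 2.68-fold and Cirbp, the cold-inducible RNA-binding protein, 2.22-fold (log2 1.42 ± 0.14 and 1.15 ± 0.17, adjusted p = 0.000103 and 0.000844). Ybx1 rose by 0.40 ± 0.12 (adjusted p = 0.0272), and Tia1, a translational repressor that binds AU-rich elements, fell (log2 -0.78 ± 0.16, adjusted p = 0.0034). Of 13 genes of nonsense-mediated decay, 2 were higher, Smg1 (log2 0.70 ± 0.14, adjusted p = 0.00363) and Eif4a3 (0.34 ± 0.10, adjusted p = 0.0163), and the other 11 had no call. Rbm8a had no call (log2 0.27 ± 0.13, adjusted p = 0.128) and was called with the replicate block (adjusted p = 0.0386). Roquin proteins share targets with the Regnases. Roquin-1 (Rc3h1) rose from 13.2 ± 2.7 to 21.6 ± 1.2 CPM (log2 0.70 ± 0.16, adjusted p = 0.00725), and Rc3h2 had an adjusted p of 0.0527 (log2 0.51 ± 0.19), or 0.0352 with the replicate block. N4bp1, a relative of the Regnases, rose (log2 0.76 ± 0.21, adjusted p = 0.0162). The germline and placental relatives Btg4 and Zfp36l3 had no read in any library. Calls of Cnot2, Pabpc4, Paip2, Ttc37, Ybx1, Eif4a3 and N4bp1 were made in 4 to 10 of the 14 fits run, and those of the other called genes named from these lists in 12 to 14.

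**Figure D4:**
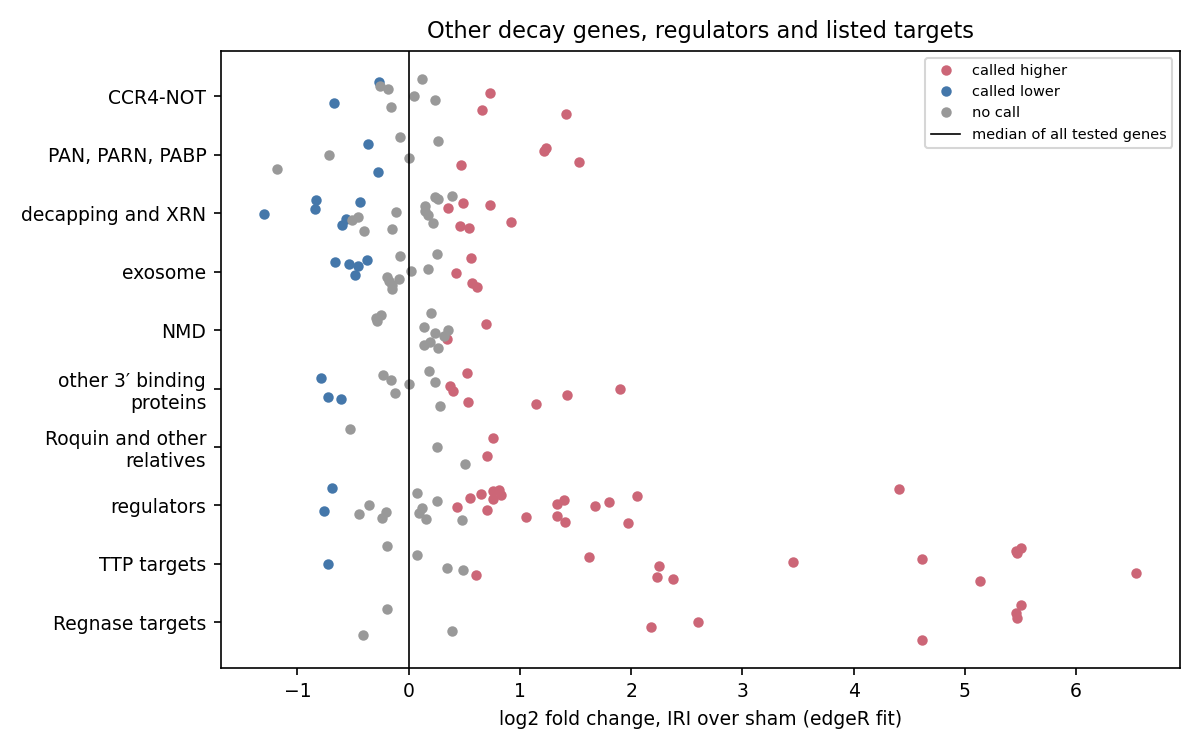
Log2 fold change of IRI over sham for each tested gene of the decay, regulator and target lists, with the members left out, coloured by call; Il6 and Cxcl3, which had no read in sham, are not drawn. The decay lists lie on both sides of the median of all tested genes, while the target lists reach 6.54 (Lif).

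Genes that act on the members were mostly higher. Of 30 regulators tested, 18 were higher and 2 lower, 60% and 6.67% against 24.2% and 21.2% of all tested genes. Their median log2 fold change was 0.68. This list too was drawn up with results of these data known, so its direction is a description. Kinases of the p38 pathway phosphorylate TTP and so keep it from recruiting CCR4-NOT, and 14-3-3 proteins bind the phosphorylated form. Mapk11, the beta isoform of p38, rose from 2.35 ± 0.98 to 49.5 ± 23.0 CPM (log2 4.41 ± 0.53, adjusted p = 0.000988), while Mapk14, the alpha isoform, fell (log2 -0.69 ± 0.14, adjusted p = 0.00335). Mapkapk2 and Mapkapk3, kinases of the same pathway, rose (log2 0.81 ± 0.15 and 0.76 ± 0.11, adjusted p = 0.0024 and 0.000788). The 14-3-3 gene Ywhag rose from 35.1 ± 3.9 to 122 ± 22 CPM (log2 1.80 ± 0.15, adjusted p = 4.35e-05), and Ywhab had no call (log2 0.26 ± 0.10, adjusted p = 0.056), though it was called with the replicate block (adjusted p = 0.0474). The kinase Rps6ka3 rose 4.15-fold (log2 2.05 ± 0.13, adjusted p = 1.39e-05). Ppp2ca, the catalytic subunit of the phosphatase that acts on TTP, rose from 535 ± 13 to 906 ± 99 CPM (log2 0.76 ± 0.11, adjusted p = 0.000779). Rela, which encodes an NF-kB subunit, rose 3.93-fold (log2 1.97 ± 0.18, adjusted p = 9.73e-05). Btrc, a ubiquitin ligase subunit that marks Regnase-1 for destruction, was the other gene called lower (log2 -0.76 ± 0.12, adjusted p = 0.0011).

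Most known targets of TTP and of Regnase-1 that were tested were higher in the same samples. Without the members themselves, 18 of 24 listed TTP targets were tested. Of these, 13 (72.2%) were higher and 1 (5.56%), Vegfa, was lower (log2 -0.72 ± 0.11, adjusted p = 0.0008). Tnf, with 10 reads in sham and 87 in IRI, was below the filter. Of 14 listed Regnase targets, 11 were tested, 8 (72.7%) were higher and the other 3 had no call. Of all tested genes, 24.2% were higher and 21.2% lower. The list medians were 2.31 and 4.61 (log2), also with genes unread in sham at their lower bound, and 6 genes are in both lists. Il6, an inflammatory cytokine cleared by both TTP and Regnase-1, had no read in sham and 163 in IRI, at least 56.6-fold higher against a floor of 3 reads over the group (adjusted p = 0.000344). Cxcl3, a neutrophil chemokine, had no sham read and 120 IRI reads, at least 41.7-fold higher on the same floor (adjusted p = 0.00138). Lif, of the interleukin 6 family, had 7 reads in sham and 663 in IRI, a ratio of 98.7 (95% exact interval 47.7 to 246.5, counting error only). Il1b had 4 and 190 reads, a ratio of 49.5 (19.0 to 183.6). Cxcl2 went from 0.265 ± 0.176 to 11.5 ± 6.6 CPM (log2 5.47 ± 0.62, adjusted p = 0.000389). The abundant target Ier3 rose from 135 ± 24 to 414 ± 66 CPM (log2 1.62 ± 0.17, adjusted p = 0.000123), while Fos was at 376 ± 124 and 476 ± 122 CPM with no call (adjusted p = 0.343). Nfkbiz, an NF-kB cofactor cut by Regnase-1, rose from 9.83 ± 1.31 to 44.7 ± 7.5 CPM (log2 2.18 ± 0.17, adjusted p = 2.84e-05), and the transferrin receptor Tfrc had no call (log2 -0.41 ± 0.20, adjusted p = 0.129). Of the listed targets called higher, Il6, Cxcl3, Il1b, Lif, Cxcl1, Cxcl2, Ptgs2, Plk3 and Rel had few or no sham reads. They would not have passed the low-count filter on the sham samples alone. Of the Regnase targets called higher, Nfkbiz was the only other. Targets with few reads in both groups were left out, so the shares and medians of these lists reflect the filter. The target lists were drawn up with results of these data known, so their direction is a description. RNA levels alone do not separate synthesis from decay.

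Elements like those of the TTP transcripts stood in 14 of the 24 target UTRs by the same search and are shown for 4 targets that rose, for Vegfa, which fell, and for Fos, with no call. Dusp1 and Il2, with no call either, also held it.
Cxcl1: atgtatTTATTTATTccacaa
Lif: gggcctTTATTTATTatttaa
Ptgs2: ccatatTTATTTATTtatgtg
Birc3: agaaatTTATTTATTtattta
Vegfa: tatcatTTATTTATTggtgct
Fos: ttcaatTTATTTATTaagatg
They start at bases 102, 2715, 18, 194, 1674 and 655 of the 3′ UTR. Il6, Il1b and Ier3 held no 9-base element in the annotated UTR but 10, 4 and 5 copies of ATTTA. Myc and Plau, also called higher, held no 9-base element either, with 2 and 0 copies of ATTTA.

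The genes whose profiles were nearest to a member were found by the root mean square difference over the 6 samples of log2 CPM less the mean of the sham samples, among the 8935 tested genes whose mean log2 CPM was 3 or more. It was computed for the member of each family with the smallest p. Nearest to Zfp36l2 were Relb, Plk2 and Rhbdf1, with differences of 0.17, 0.18 and 0.20 (log2). Nearest to Tob1 were Galntl4, Tmem25 and Pik3r3, at 0.084 to 0.086. Nearest to Zc3h12a were Slc25a25, N4bp3 and Rela, at 0.058, 0.071 and 0.097. With 3 samples a group, this likeness mostly reflects the size of the group difference.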

How the data were processed

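RNA of sorted EGFP-positive cells was sequenced in 3 sham and 3 IRI samples, grouped by their titles. The labels do not state separate experiments, and the p-values reflect only the spread between pooled samples, which may be technical. The deposited read counts per gene are raw whole numbers; STAR, HTSeq, edgeR and the build mm9 are named, per the submitters' processing notes, with versions and roles not given in the sources used here. Libraries were made with SMARTER chemistry, per the labels' protocols, and counting ignored strand, per the file names. The deposited RPKM values, per the file headers, come with gene symbols and lengths, and equalled count over length over an effective library size for genes with more than 50 reads in each sample. The 5 HTSeq entries without a gene were dropped, of which reads with no unique alignment were 39.9% to 42.4% of a library and reads outside genes 6.45% to 7.81%, so genes with near-identical copies, such as Pabpc1, are uncertain.

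Counts were tested with edgeR 4.0.16 (R 4.3.3): filterByExpr, TMM, a robust quasi-likelihood fit with group as its only term, and Benjamini-Hochberg adjustment over 13881 genes. CPM used TMM-scaled sizes, and SEs came from the F statistic. Shares and ratios of RPKM were compared by exact permutation over samples, and over pairs as an alternative chosen after seeing the data. On simulated counts for IRI against sham, calls were made for 73 of 100 genes with a 2-fold change, 100 of 100 with a 4-fold change and 11 of 13686 without one. The simulation gave all genes the same variability and changed far fewer genes than were called here, all above a minimum read count. These rates need not hold for genes with few reads, such as Zc3h12a, or a wide spread, such as Btg3. Deviations of same-numbered samples from their group means correlated at 0.208, 0.137 and 0.176, and those of different-numbered samples at -0.137 to -0.003. These values are not independent of each other and are only a hint from the data that the numbers pair the samples. The main fit does not use the pairing, and a fit with the number as a block is an alternative. Alternatives were library size alone, upper-quartile scaling, DESeq2 1.42.0 with its size factors, limma-voom (3.58.1), no filter, a filter of 1 CPM in 3 samples, the replicate block and leaving out each library. Sequences came from GENCODE M21 and from RefSeq (GRCm38.p6), not the build of the files.

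The members and lists were chosen with earlier results of these data known. All members were named, and 3 nearest profiles per family. Of each list, up to 4 called genes with the largest change and 2 with the highest level were named. Vegfa, Cnot6l, Dusp1, Il2, Mapk14, Mapkapk2, Mapkapk3, Btrc, Cxadr, Btg4, Zfp36l3, Plk3, Rel, Plau and Myc were named after their values were seen. So were the printed target sites and the cell type markers. The 4 listed genes Cnot11, Exosc6, Smg8 and Smg9 matched no symbol.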

Additional observations from a re-analysis of the deposited data

How the results depend on the processing

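The 10 genes were refitted under 13 alternatives, and 127 of 130 values kept their direction and their side of the threshold. Tob2 turned to -0.029 (log2) with library size alone. Leaving out each library in turn gave 0.35 to 1.64 for Btg3, 0.37 to 0.64 for Zc3h12c and 0.02 to 0.27 for Tob2; the first 2 gained a call without IRI replicate 1 and IRI replicate 2. The second Tob2 entry went to -0.12 with library size alone, -0.026 with upper-quartile scaling and -0.19 to 0.37 without single libraries, and the stricter filter removed it. The cause was not tested. With library size alone 17 decay genes were higher and 30 lower (17.2% and 30.3%), and 6 targets and regulators were lower (11.3%). Of all tested genes 17.3% were higher and 31.2% lower in that fit. Without single libraries 18 to 26 decay genes and 2566 to 3172 of all genes were higher. The IRI minus sham difference in the share of Btg3 was -0.19 to 1.85 percentage points without single libraries. The replicate block left all member calls as they were (Zfp36 1.86, adjusted p = 9.46e-05), and called 3368 genes higher and 3095 lower of all tested. It changed the calls of Pabpc4, Rc3h2, Rbm8a and Ywhab and no other among the named genes. The difference of medians for the AU-rich element was 0.0368 in the length band. Zc3h12a rests on few reads, which limits its precision.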

Other observations

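The 9-base element of the TTP transcripts was also set against the change of all genes, without the members. Of 12362 tested genes with an annotated 3′ UTR, 977 held at least 1 copy. Of these 31.1% were called higher and 16.6% lower, against 25.7% and 21.5% of all 12362. The median log2 fold change was 0.12 with the element and 0.01 over all. Genes with the element had longer UTRs, with a median of 2477 bases against 1328. Among UTRs of 1000 to 2000 bases, an alternative chosen after seeing the data, 29.9% of 241 genes with the element were higher and 21.6% lower, against 27.2% and 22.3% of 3244, and the difference of the medians was 0.04 instead of 0.11. With at least 3 copies of ATTTA, 29.6% of 4846 genes were higher and 18% lower. The share higher did not climb with the number of copies: it was 31.7% with 1, 29.7% with 2 and 28.2% with 3 or more. No test was made of these differences.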
